A study of Mus musculus with 6 samples.

Results

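The serpins and the plasminogen activator system were examined as 9 genes in BV2, a mouse microglial cell line (microglia are the macrophages of the brain parenchyma). The genes were the serpins Serpinb2, Serpinb10, Serpinb9, Serpinb6a, Serpinb1a, Serping1 and Serpinh1, the protease Plau and its receptor Plaur. They were found by gene name in the deposited table of FPKM values (read counts scaled by gene length and library depth), which held 8 of the 9 among its 25032 genes. The remaining gene, Serping1, was found by its identifier in the count table of 55359 genes. One group of 3 libraries came from BV2 cells overexpressing GFP, a fluorescent protein used as the control. The other group of 3 came from BV2 cells overexpressing TDP43-NLS, which the series describes as TDP-43 with a mutated nuclear localisation signal. By its title, the study concerns necroptosis of microglia, a lytic form of regulated cell death. The labels used here do not give the vector, its promoter, the time of expression or whether the 3 libraries of a group are separate cultures, so p-values measure the spread between these libraries, which may be technical. The 9 genes were proposed with measured values of this same comparison in view (selected on the reads of these 6 libraries), so their values are given as a description without a test.

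Serpins are a family of protease inhibitors that present a flexible loop as bait, trap the attacking protease and are used up in the process. Those of clade B lack a classical secretion signal and act mostly inside cells. In the plasminogen activator system, urokinase (the product of Plau) binds its receptor (the product of Plaur) on the cell surface and cleaves plasminogen to the broad protease plasmin, and the inhibitor PAI-2 (Serpinb2) blocks urokinase. Macrophages and microglia are known producers of urokinase, its receptor and PAI-2.

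The libraries held 15062131 to 18005592 counted reads. GFP replicate 2 stood apart from the other GFP libraries, with chi-square over its degrees of freedom at 7.24 and 7.27 against them, where GFP replicates 1 and 3 had 1.2 and pairs of TDP43-NLS libraries 1.87 to 2.73. Of 12 microglial or macrophage markers 11 had a mean of at least 1 CPM (read counts scaled by library depth alone), and the sum of the 12 was 2471 to 2573 CPM under GFP and 2409 to 2466 CPM under TDP43-NLS. Within that near-equal sum 5 markers were called higher, 6 lower and 1 neither. Cd14 had 104 and 241 CPM, Itgam 39.97 and 98.3 CPM and Aif1 3.73 and 10.6 CPM, while P2ry12 had 1.27 and 0.261 CPM. Fibroblast markers summed to at most 0.135 CPM and neuronal markers to at most 0.674 CPM in any library. The 4 T cell markers summed to 4.24 to 5.41 CPM under GFP and 0.202 to 0.345 CPM under TDP43-NLS, with Cd3e and Cd8a at 0 reads, and the 4 endothelial markers to 0.626 to 1.09 and 3.17 to 4.04 CPM, with Cldn5 at 1 read in all. Their part in the results was not tested. Tardbp, the mouse gene for TDP-43, had 451 ± 23.9 CPM under GFP and 376 ± 9.61 CPM under TDP43-NLS (± SD, n = 3 per group), lower under the TDP43-NLS label (log2 fold change -0.26, adjusted p = 0.000291). No source used here says whether reads of the construct fall in the count of this gene, and every direction below rests on the labels.

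Plau and Plaur, the activator and its receptor, were both higher in the libraries labelled TDP43-NLS, the receptor by more. Plau (ENSMUSG00000021822, GRCm39 chromosome 14, 20886728 to 20893453, plus strand) had 3614, 4097 and 4061 reads under GFP and 4684, 5628 and 5440 under TDP43-NLS. Per length and depth these were 99.4, 104 and 98.8 FPKM against 131, 132 and 130.5 FPKM. In bulk RNA more cells with a transcript and more of it per cell cannot be told apart, here and below. Every TDP43-NLS library lay above every GFP library, and the TDP43-NLS libraries had an SD of 0.781 FPKM. The log2 fold change was 0.42 with a standard error of 0.04, or 1.34-fold on mean CPM. In both groups Plau was among the most abundant transcripts, at percentile 98.1 and 98.7 of the FPKM of all genes with a read.

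Plaur (ENSMUSG00000046223, chromosome 7, 24161909 to 24175393, plus strand) encodes the urokinase receptor, a protein held to the membrane by a lipid anchor. It had 22.6, 25.1 and 23.1 FPKM under GFP and 56.6, 59.2 and 55.0 FPKM under TDP43-NLS, from 908 to 1093 and 2233 to 2788 reads. The lowest TDP43-NLS library lay far above the highest GFP library. Mean CPM was 61.0 ± 3.24 against 151 ± 5.35 (± SD, n = 3 per group), 2.48-fold, with a log2 fold change of 1.31 and a standard error of 0.05. The transcript ratio of receptor to protease shifted with it. There were 22.7, 24.1 and 23.4 Plaur FPKM per 100 Plau FPKM under GFP and 43.1, 44.8 and 42.1 under TDP43-NLS.

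Serpinb2 and Serpinb10 were close to silent under GFP and present at low levels under TDP43-NLS. Serpinb2 (ENSMUSG00000062345, chromosome 1, 107439153 to 107463208, plus strand), which encodes PAI-2, had 0 reads in all 3 GFP libraries and 40, 37 and 47 under TDP43-NLS, or 1.13, 0.875 and 1.14 FPKM. Counted against 3 reads over the whole GFP group, the limit that a count of 0 allows, it was at least 41.3-fold higher. This limit covers counting error only. Its level remained modest, at percentile 55.5 of the FPKM of genes with a read.

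Serpinb10 (ENSMUSG00000092572, chromosome 1, 107456733 to 107477001, plus strand), an inhibitor found in cells of the myeloid lineage and annotated as a polymorphic pseudogene in the deposited table, had 3, 3 and 2 reads under GFP and 145, 164 and 167 under TDP43-NLS. In FPKM it went from 0.056, 0.0516 and 0.033 to 2.76, 2.61 and 2.72. Mean CPM was 0.161 ± 0.0419 against 9.53 ± 0.29 (± SD, n = 3 per group), 59.0-fold, with a log2 fold change of 5.83 and a standard error of 0.21. In the TDP43-NLS libraries Serpinb10 was thus above Serpinb2 per length, 2.7 ± 0.0767 against 1.05 ± 0.149 FPKM (± SD, n = 3 per group).

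Both genes lie on the same strand of chromosome 1, with starts 17.6 kb apart and 6476 bases in common. In the GENCODE M21 gene models, which are on the earlier build GRCm38, 291 exonic bases belong to both, 12.4% of the exonic bases of Serpinb2 and 8.34% of those of Serpinb10. No source used here says how reads in that stretch were assigned. Most exonic bases of each gene lie outside that stretch, but reads outside it were not counted apart. Its part in the difference was not tested. Both genes had more reads in each TDP43-NLS library than in any GFP library. The only other tested gene that starts within 500 kb was Serpinb8, another clade B serpin, which had 20.5 ± 0.906 and 19.3 ± 1.46 CPM (± SD, n = 3 per group) and did not pass the test (log2 fold change -0.08, adjusted p = 0.376).

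RefSeq promoter sequences on GRCm38.p6, from 250 bases before to 50 bases after a gene's start, matched 6 of the 9 genes, with 8 promoters in all. Plau, Serpinb1a and Serping1 had no entry. They were searched on both strands for the letters TGANTCA (the AP-1 site), TGACGTCA (CRE), TTGCNNCAA (C/EBP), GAGGAAG (PU.1 and other ETS factors) and the NF-kB consensus. The promoters of Serpinb2, Serpinb10 and Plaur are shown because each held the AP-1 letters, given in capitals. The GAGGAAG of Plaur is also in capitals.
Serpinb2, chr1:107511173-107511472, plus strand: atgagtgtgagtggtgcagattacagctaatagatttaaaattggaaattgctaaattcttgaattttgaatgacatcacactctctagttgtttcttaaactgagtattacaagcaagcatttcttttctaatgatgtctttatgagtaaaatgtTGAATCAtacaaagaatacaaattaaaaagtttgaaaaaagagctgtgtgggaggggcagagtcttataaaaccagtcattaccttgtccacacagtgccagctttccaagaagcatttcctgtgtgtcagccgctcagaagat
Serpinb10, chr1:107528753-107529052, plus strand: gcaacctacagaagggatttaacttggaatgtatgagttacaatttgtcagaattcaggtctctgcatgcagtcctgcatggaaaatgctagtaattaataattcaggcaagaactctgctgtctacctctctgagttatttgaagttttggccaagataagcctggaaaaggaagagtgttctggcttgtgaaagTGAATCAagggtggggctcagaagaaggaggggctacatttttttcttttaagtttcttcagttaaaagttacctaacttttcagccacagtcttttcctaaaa
Plaur, chr7:24462233-24462532, plus strand: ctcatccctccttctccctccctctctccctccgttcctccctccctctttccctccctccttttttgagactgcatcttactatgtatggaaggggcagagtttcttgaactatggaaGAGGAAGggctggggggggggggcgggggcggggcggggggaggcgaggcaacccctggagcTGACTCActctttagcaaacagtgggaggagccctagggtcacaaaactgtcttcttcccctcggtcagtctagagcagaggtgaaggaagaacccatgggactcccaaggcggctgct
The AP-1 letters begin 94 bases before the start in Serpinb2, 54 before it in Serpinb10 and 69 before it in Plaur, and read TGAATCA in the first and second of these and TGACTCA in Plaur. The second listed start of Serpinb2 holds the same letters 181 bases before it. Among all 32851 RefSeq promoters, 7.81% hold these letters, and 13.6% hold GAGGAAG. No promoter of Serpinb9, Serpinb6a or Serpinh1 held the AP-1 letters, and Serpinh1 had 1 match to the NF-kB consensus, which 4.51% of all promoters hold. A match describes the sequence and is not evidence that a factor binds there. Any link between these letters and the direction of change was not tested.

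Serpinb1a was the member that was lower, and by a wide margin. It encodes an inhibitor of the neutrophil proteases elastase, cathepsin G and proteinase 3 (ENSMUSG00000044734, chromosome 13, 33026075 to 33035168, minus strand). It had 648, 748 and 777 reads under GFP and 33, 41 and 55 under TDP43-NLS, or 18.3, 19.5 and 19.4 FPKM against 0.951, 0.989 and 1.36 FPKM. The lowest GFP library was far above the highest TDP43-NLS library. Mean CPM was 43.4 ± 1.47 against 2.56 ± 0.522 (± SD, n = 3 per group), 16.9-fold lower, with a log2 fold change of -4.07 and a standard error of 0.10. Serpinb1a thereby went from percentile 87.6 to percentile 55.8 of the genes with a read.

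Serpinb6a and Serpinb9 stood nearly level. Serpinb6a (ENSMUSG00000060147, chromosome 13, 34101901 to 34186777, minus strand), an inhibitor of cathepsin G among others, was the most abundant serpin of the set, with 33.1, 29.3 and 32.6 FPKM under GFP and 33.3, 33.7 and 33.3 FPKM under TDP43-NLS. The lowest value was that of GFP replicate 2, the library that stood apart. Its log2 fold change was 0.12 with a standard error of 0.05. It was 0.06 without GFP replicate 2 and 0.15 without GFP replicate 1, and in the latter fit Serpinb6a was called higher. In GENCODE M21, 1587 of its 5409 exonic bases (29.3%) are overlapped by exons of genes on the opposite strand, among them Nqo2 and Ripk1, and without strand in the counting reads there cannot be told apart. Serpinb9 (ENSMUSG00000045827, chromosome 13, 33187233 to 33201940, plus strand), the inhibitor of the cytotoxic protease granzyme B, had 102, 127 and 121 reads against 114, 137 and 154. Its log2 fold change was 0.21 with a standard error of 0.11. In FPKM its groups overlapped, at 1.9, 2.18 and 1.99 against 2.17, 2.18 and 2.5, while in CPM with TMM scaling they did not.

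The last 2 members were not expressed to a measurable level. Serping1 (ENSMUSG00000023224), the secreted C1 inhibitor that restrains the classical complement and contact pathways, had 0 reads in all 6 libraries, which allows up to 0.06 CPM over the 3 libraries of either group. Serpinh1 (ENSMUSG00000070436, chromosome 7, 98994583 to 99002446, minus strand), the collagen chaperone HSP47 of the endoplasmic reticulum, had 1 read under GFP and 2 under TDP43-NLS. Neither passed the filter on low counts, and no fold is given for them.

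**Figure D1:**
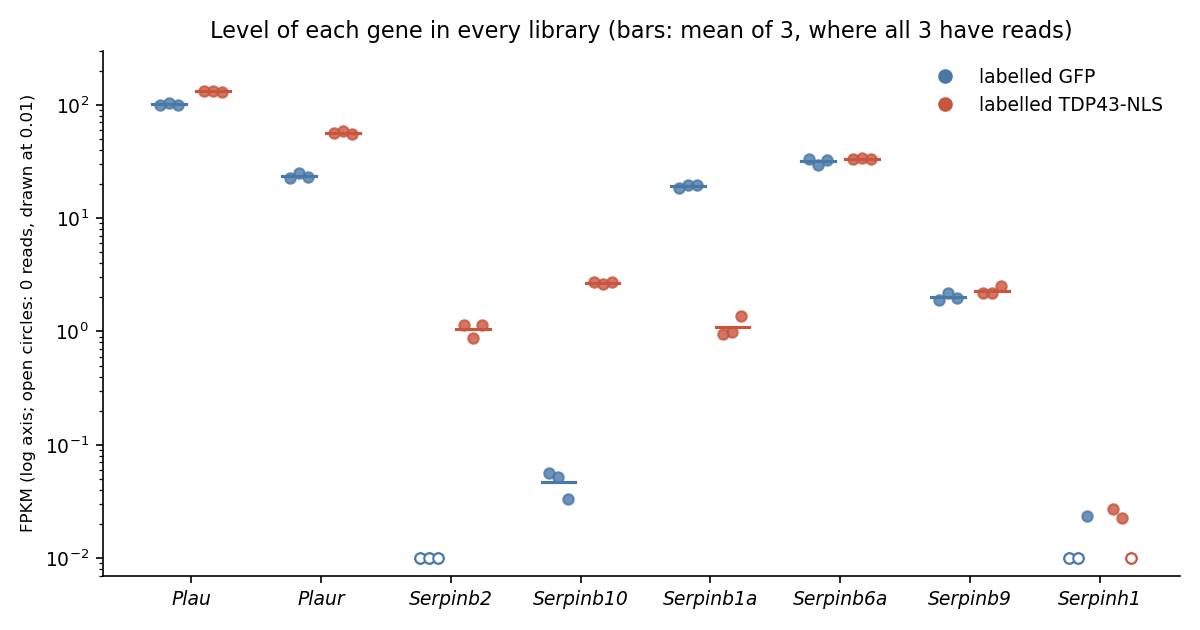
FPKM of 8 genes (log axis) in each of the 3 GFP (blue) and 3 TDP43-NLS (red) libraries, with bars at the mean of 3 and open circles at 0.01 for libraries with 0 reads. Serpinb2, Serpinb10 and Plaur lie higher under TDP43-NLS, Serpinb1a goes from a mean of 19.1 to 1.1 FPKM, and Serpinb6a and Serpinb9 are nearly level.

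Of the 9 genes, 7 passed the filter on low counts. Among them the fit over all 13199 tested genes called 4 higher (Plau, Plaur, Serpinb2, Serpinb10) and 1 lower (Serpinb1a), where it called 57.5% of all tested genes in either direction. The groups did not overlap in CPM for any of the 7, with TDP43-NLS above in 6 and below in 1. Of all tested genes 63.2% did not overlap, 32% with TDP43-NLS above and 31.2% with it below. Nothing is read from these counts, since the genes were chosen with this comparison known and Serpinb2 and Serpinb10 passed the filter only through the TDP43-NLS group. In the GFP libraries the order of levels in FPKM was Plau, Serpinb6a, Plaur, Serpinb1a, Serpinb9 and Serpinb10, with no overlap between neighbours in that order. In the TDP43-NLS libraries it was Plau, Plaur, Serpinb6a, Serpinb10, Serpinb9, Serpinb1a and Serpinb2, and of these neighbours Serpinb1a and Serpinb2 had overlapping ranges. Plaur thus passed Serpinb6a, and Serpinb1a moved from above Serpinb9 and Serpinb10 to below both. Without GFP replicate 2, the log2 fold change was 0.44 for Plau, 1.35 for Plaur, 5.91 for Serpinb10 and -4.06 for Serpinb1a, close to the values with it.

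The genes most like these in pattern were sought among 11031 other genes by the distance between log2 CPM values, each centred on its mean over the 6 libraries. For Serpinb2 they included Slc28a2 and Aqp9, at distances of 0.52 and 0.60. For Plau they were Ccnd2, Rac2 and Nedd4l (0.03, 0.03 and 0.04), and for Plaur they were Slc2a1, Xist and Micall2 (0.05, 0.06 and 0.09). The genes named for Plau and Plaur have nearly the same fold change as these. For Serpinb2 the distance depends on the count of 2 added before the log, since its GFP libraries have 0 reads, and the fitted log2 fold changes of Slc28a2 and Aqp9 were 4.204 and 4.255. No such genes were sought for Serpinh1, which was not tested.

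The 14 clade B serpins with a read summed to 76.8, 74.6 and 78.7 FPKM under GFP and 61.5, 63.1 and 63.3 FPKM under TDP43-NLS. Every TDP43-NLS library had a lower sum than any GFP library. The mean sum went from 76.7 to 62.6 FPKM, while Serpinb1a alone went from a mean of 19.1 to 1.1 FPKM. The lower sum is therefore not read as a fall of the other clade B serpins. Serpinb1a held 24.9% ± 1.15 of the clade B sum under GFP and 1.75% ± 0.337 under TDP43-NLS (± SD, n = 3 per group). Serpinb6a held 41.3% ± 1.93 and 53.4% ± 0.748 (± SD, n = 3 per group). The latter is a share of the smaller sum, and its own means were 31.7 and 33.5 FPKM. Within the trio of Serpinb1 genes, Serpinb1a held 78.8%, 78.0% and 76.9% of the FPKM under GFP and 18.4%, 18.5% and 22.2% under TDP43-NLS.

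**Figure D2:**
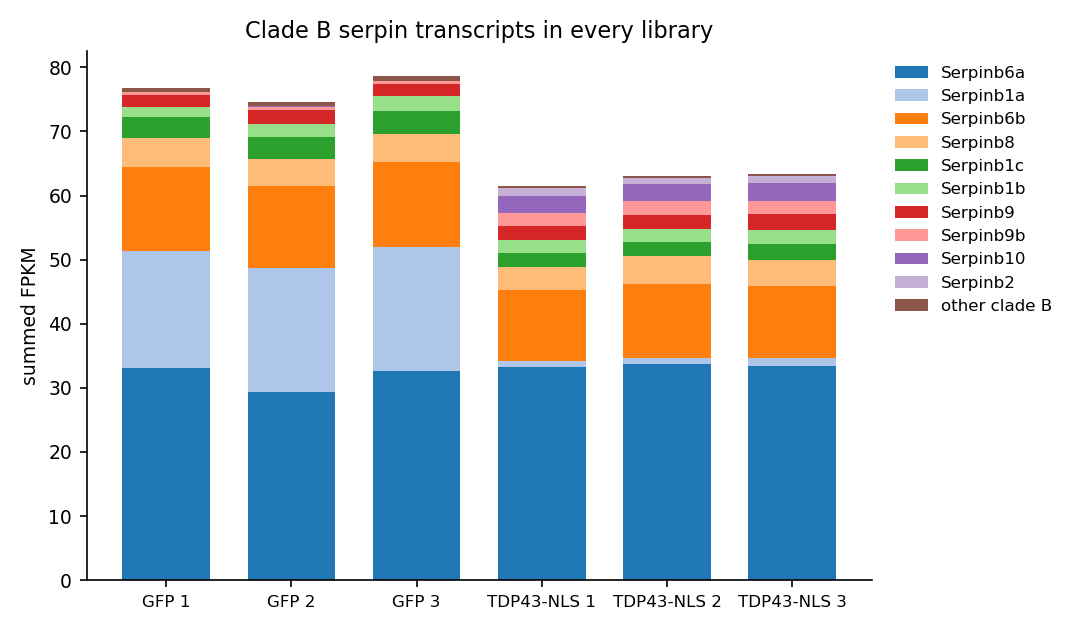
Summed FPKM of the clade B serpins in each library, stacked by gene. The GFP libraries reach 74.6 to 78.7 FPKM and the TDP43-NLS libraries 61.5 to 63.3 FPKM. The light blue Serpinb1a segment is nearly lost in the latter, while Serpinb10 and Serpinb2 appear and Serpinb9b, present under GFP, grows.

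The clade B serpins of chromosome 13 lie in a cluster, and neighbours in it went different ways. Within 500 kb of the start of Serpinb1a, 9 genes other than the members had a read and 5 were tested, of which 1 was higher and 3 lower. Serpinb1c, the nearest tested paralogue at 39.3 kb, fell from 5.57 ± 0.271 to 3.86 ± 0.414 CPM (± SD, n = 3 per group, log2 fold change -0.52, adjusted p = 0.00347). Serpinb1b did not pass, with 3.75 ± 0.591 and 4.12 ± 0.0793 CPM (± SD, n = 3 per group, adjusted p = 0.487). Serpinb9b, which starts 24166 bases from Serpinb9, rose from 1.44 to 6.89 CPM (log2 fold change 2.26, SE 0.15, adjusted p = 4.19e-08), while Serpinb9 had the nearly level values above. No stretch of 100 bases in the transcripts of Serpinb1a, Serpinb1b, Serpinb1c or Serpinb9 occurs in a transcript of another gene of GENCODE M21, and Serpinb9b shares 1.91% of such stretches with the overlapping Gm36099. Only exact matches of that length were sought, and shorter or inexact ones were not tested. On chromosome 13 as a whole, 88 of 502 tested genes were higher and 186 lower, with a median log2 fold change of -0.12. Around the other members, within 500 kb of Plau 6 of 20 tested genes were higher and 3 lower, around Plaur 4 of 19 were higher and 5 lower, and around Serpinb6a 1 of 6 was higher and 2 lower. Around Serpinh1, itself nearly unread, 6 of 12 were higher and 1 lower, with a median log2 fold change of 0.40. Around all 8 members with a position 18 of 63 tested neighbours were higher and 14 lower, against 29.3% and 28.2% of all tested genes.

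**Figure D3:**
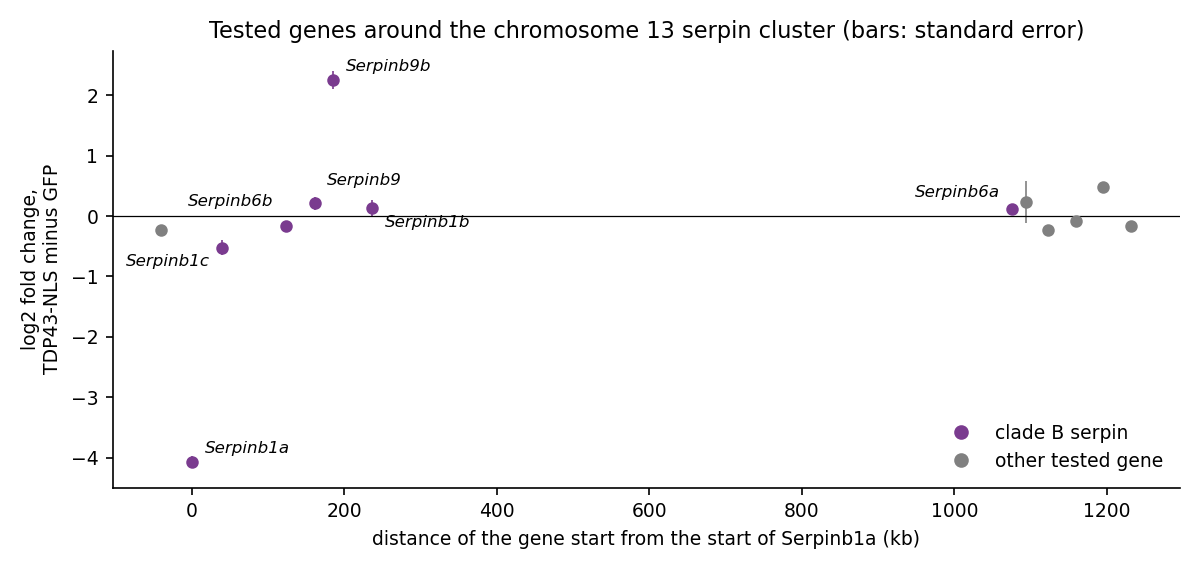
Log2 fold change (points, with standard errors) of tested genes by the distance in kb of their start from that of Serpinb1a on chromosome 13, with clade B serpins in purple and other genes in grey. Serpinb1a, at -4.07, stands far below its neighbours, and Serpinb9b lies at 2.26.

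Beyond the members, the serpin family had 28 other genes with a read, 10 of which were tested, and 33 with 0 reads in all 6 libraries. Of these 2 rose, 4 fell and 4 did not pass, with a median log2 fold change of -0.11 against 0.0027 over all tested genes. Serpinb9b, described above, was among those that rose. Serpinf1, the secreted factor PEDF, which has no inhibitory activity, fell from 22.8 to 10.3 CPM (log2 fold change -1.15, adjusted p = 7.37e-08). Serpinb12 fell from 1.43 to 0.498 CPM (log2 fold change -1.51, adjusted p = 0.000289). Serpinb6b, another clade B serpin, fell by 0.17 on the log2 scale (adjusted p = 0.0226). That call ended without GFP replicate 1 or 3 or any 1 of the TDP43-NLS libraries (adjusted p of 0.0531 to 0.074) and with DESeq2 (adjusted p = 0.145).

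Set against the protease, the transcript of PAI-2 stayed low. Serpinb2 was at 0 FPKM per 100 FPKM of Plau in all 3 GFP libraries and at 0.861, 0.662 and 0.871 under TDP43-NLS. The GFP ratio is 0 because Serpinb2 had 0 reads there, so nothing beyond those reads is read from the separation of the groups. Transcript ratios do not measure active protein.

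**Figure D4:**
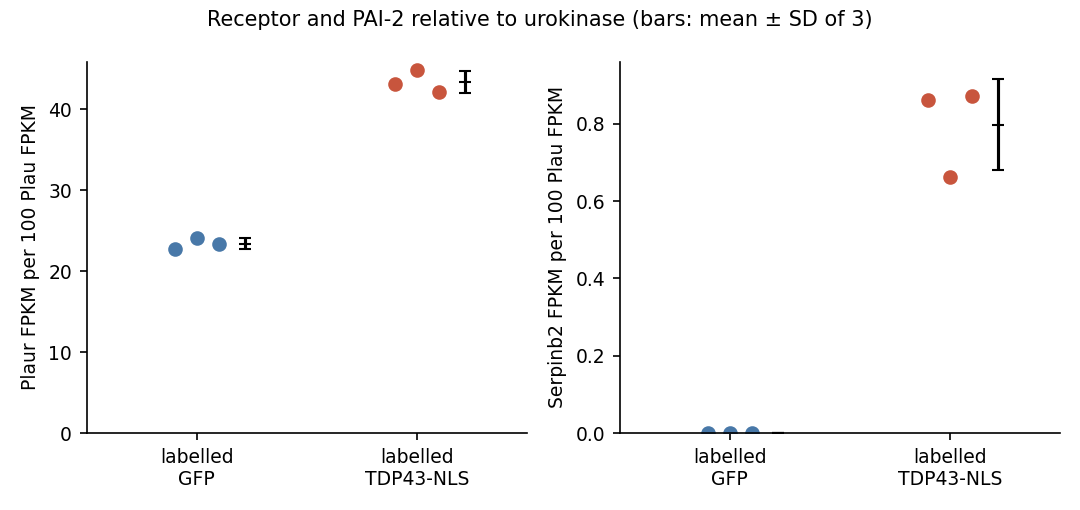
Left, Plaur FPKM per 100 Plau FPKM, and right, Serpinb2 FPKM per 100 Plau FPKM, in each GFP (blue) and TDP43-NLS (red) library, with the mean ± SD of 3 beside them. The left ratio goes from 23.4 to 43.4 on average, and the right one is 0 in every GFP library and 0.798 on average under TDP43-NLS.

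The remaining parts of the pathway were read from 82 genes in lists by role. Of these 10 had no read in any library and 48 were tested, with 30 higher, 9 lower and 9 not passing by edgeR's quasi-likelihood test. That is 62.5% higher and 18.8% lower, against 29.3% and 28.2% of all tested genes, and the median log2 fold change was 0.34 against 0.0027. These lists, and their parts below, were chosen with earlier results of these data known. Nothing about the pathway is therefore read from these shares. Plasminogen itself and the other activator were not among the tested genes: Plg had 0 reads in all 6 libraries, and Plat, tissue plasminogen activator, had 1. Among the inhibitors, Serpinf2, the plasmin inhibitor alpha-2-antiplasmin, had 0.91 and 0.819 CPM (adjusted p = 0.73), and Serpine2, protease nexin 1, had 1 read in all libraries.

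All 4 plasminogen receptors passed the test, 3 higher and 1 lower. Anxa2 and S100a10 encode the partners of the annexin A2 complex, which docks plasminogen and its activators at the cell surface. Anxa2 rose from 214 ± 2.29 to 350.5 ± 9.15 CPM and S100a10 from 142 ± 12.7 to 267 ± 8.35 CPM (± SD, n = 3 per group), with log2 fold changes of 0.71 and 0.91 (adjusted p = 6.31e-09 and 2.35e-08). Eno1, a glycolytic enzyme that also binds plasminogen, rose by 0.29 on the log2 scale (adjusted p = 3.33e-05). Plgrkt, a membrane plasminogen receptor, went the other way, from 35.03 to 28.9 CPM (log2 fold change -0.28, adjusted p = 0.000904).

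Of the listed partners of the urokinase receptor, vitronectin among them, 6 of 10 were tested, with 5 higher and 1 lower. The integrin chain Itgb3 rose from 1.4 ± 0.488 to 10.3 ± 0.231 CPM (± SD, n = 3 per group, log2 fold change 2.90, adjusted p = 1.19e-08). Itgam and Itgb2, which form the complement receptor Mac-1, rose by 1.30 and 0.50 on the log2 scale (adjusted p = 1.63e-08 and 2.37e-07), and Itga5, of the fibronectin receptor, by 0.96 (adjusted p = 4.32e-09). Itgav, the usual partner of the Itgb3 chain in the vitronectin receptor, fell by 0.52 (adjusted p = 2.70e-06). Vitronectin itself (Vtn) had 2 reads in all libraries.

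Endocytic clearance of protease and inhibitor complexes had 3 genes higher and 2 lower of 5 tested. Igf2r, a receptor that binds the urokinase receptor and plasminogen, rose from 62.0 ± 1.30 to 229 ± 10.8 CPM (± SD, n = 3 per group, log2 fold change 1.89, adjusted p = 3.49e-12). Lrpap1, a chaperone of the LRP receptors, rose by 0.32 (adjusted p = 7.13e-06), and Sorl1, a sorting receptor, fell by 0.77 (adjusted p = 3.57e-09). Lrp1, the main clearance receptor, fell by 0.13 (adjusted p = 0.0441), but without GFP replicate 3, TDP43-NLS replicate 2 or TDP43-NLS replicate 3 the adjusted p was 0.0653, 0.0832 and 0.264, and without the last of these the log2 fold change was -0.07. The call of Lrp1 also ended with limma on log2(FPKM + 1) (adjusted p = 0.0519). Lrp2 rose by 0.75 (adjusted p = 0.0122), with an adjusted p of 0.0565 without GFP replicate 2 and 0.131 with DESeq2. With limma on log2(FPKM + 1) without a filter, the adjusted p of Lrp2 was 0.105.

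Of 7 tested substrates of urokinase or plasmin, 6 rose and 0 fell. The gelatinase Mmp9 rose from 2.64 ± 0.597 to 14.2 ± 0.619 CPM (± SD, n = 3 per group, log2 fold change 2.43, adjusted p = 5.37e-09), Mmp2 from 0.529 to 1.84 CPM (log2 fold change 1.82, adjusted p = 0.000147) and the macrophage elastase Mmp12 by 0.43 (adjusted p = 0.000108). Hgf, a growth factor that urokinase can activate, rose by 0.34 (adjusted p = 0.0124). Its call ended without TDP43-NLS replicate 1 (adjusted p = 0.0514), with DESeq2 (adjusted p = 0.0861) and with limma on log2(FPKM + 1) (adjusted p = 0.076). At an unadjusted p under 0.05, 6 of 7 substrates were higher and 0 lower by edgeR. By DESeq2, run without the low-count filter, 5 of 9 with a p-value were higher and 0 lower. These counts come from the same reads and list, and nothing more is read from them.

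The proteases that clade B serpins are known to inhibit differed widely in level. Granule proteases of lymphocytes and neutrophils were little read: Gzma and Gzmb, the granzymes, had 0 reads, Ctsg 2 and Elane 9 in all libraries together. Prtn3, which encodes proteinase 3, had 4, 2 and 4 reads under GFP and 11, 11 and 7 under TDP43-NLS. It did not pass the filter on low counts and was not tested. Lysosomal cathepsins were abundant: Ctsb rose by 0.34 from 4184 ± 67.4 CPM and Ctsl by 0.52 from 1015 ± 36.4 CPM (SD, n = 3, adjusted p = 2.64e-06 and 1.63e-07). Ctss (475 and 447 CPM, adjusted p = 0.0517) and Ctsc (321 and 311 CPM, adjusted p = 0.362) did not pass. Of the caspases, Casp4 rose by 0.49 (adjusted p = 0.00115) and Casp8 by 0.23 (adjusted p = 0.00891), and Casp1 fell by 0.78 (adjusted p = 1.54e-07). The call of Casp8 ended without TDP43-NLS replicate 2 (adjusted p = 0.0502) and with limma on log2(FPKM + 1) (adjusted p = 0.0845). In all, 4 of 7 tested genes of this list rose and 1 fell.

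Of the targets and partners of the C1 inhibitor 4 were tested, of which 1 rose and 2 fell. C1ra, a protease that this inhibitor blocks, rose from 21.1 ± 2.26 to 45.1 ± 3.78 CPM (± SD, n = 3 per group, log2 fold change 1.09, adjusted p = 1.33e-07), while C1qb and C1qc, chains of the recognition molecule, fell by 0.37 and 0.65 (adjusted p = 0.00105 and 1.79e-05). The inhibitor's own gene, Serping1, had no read in these libraries, as given above.

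Fibrillar collagens were nearly unread, as was their chaperone Serpinh1, whereas enzymes that modify collagen were read. Col1a1, Col1a2 and Col3a1 had 4, 1 and 0 reads in all libraries. Of 11 tested genes of this list 7 rose and 2 fell. They include the collagens Col4a1 and Col4a2. Col4a2 rose from 0.418 to 1.51 CPM (log2 fold change 1.84, adjusted p = 6.23e-05), and Col4a1 did not pass (adjusted p = 0.169). The proline hydroxylase subunits P4ha2 and P4ha1 rose by 2.28 and 0.33 on the log2 scale (adjusted p = 1.53e-07 and 5.67e-05), P4ha2 from 1.14 to 5.55 CPM, and the hydroxylases Plod2 and P3h1 by 0.57 and 0.50 (adjusted p = 8.24e-07 and 1.57e-05). Plod1 fell by 0.34 (adjusted p = 2.00e-05). Ppib, a prolyl isomerase, fell by 0.13 (adjusted p = 0.048), a call that ended in all 6 fits without 1 library (adjusted p of 0.0533 to 0.142) with DESeq2 (adjusted p = 0.176) and with the replicate block (adjusted p = 0.0731).

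**Figure D5:**
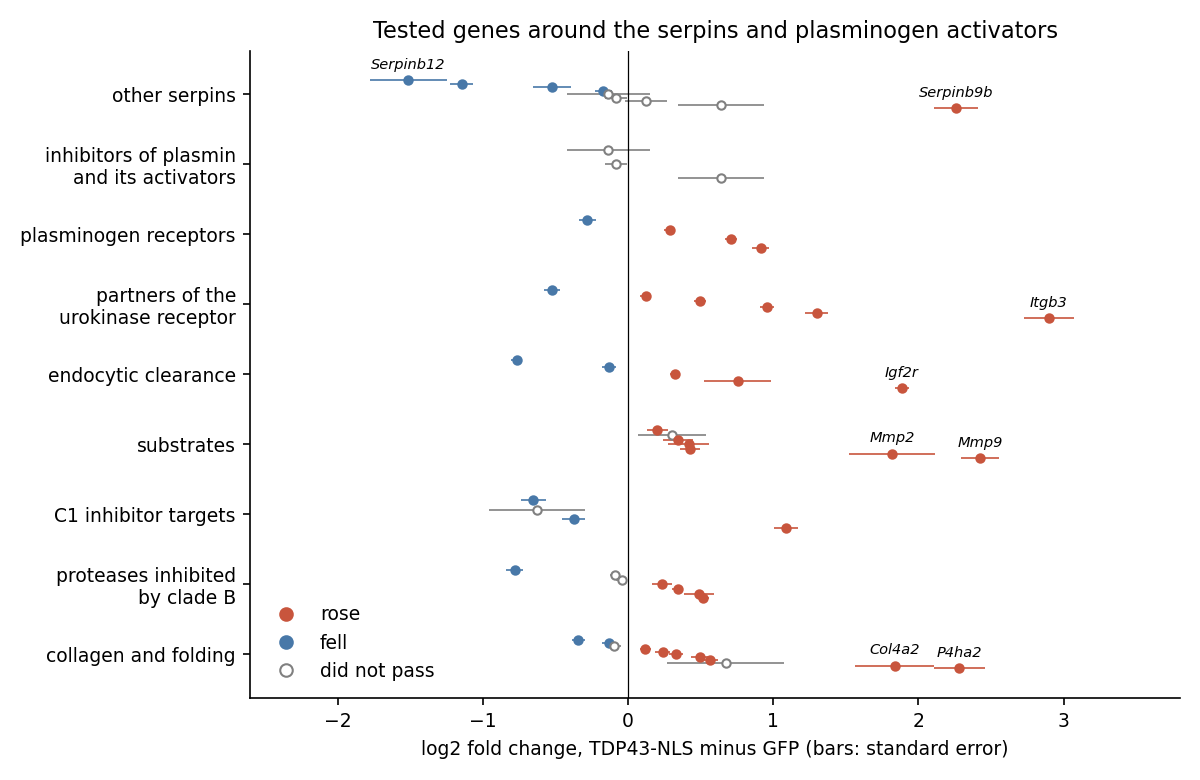
Log2 fold change (points, with standard errors) of the tested genes of the serpin family and of each role, with red for genes that rose, blue for genes that fell and open grey for those that did not pass (1 gene that is not reported here is not drawn). Itgb3 (2.90), Mmp9 (2.43), P4ha2 (2.28) and Serpinb9b (2.26) lie farthest to the right.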

How the data were processed

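RNA sequencing was done on 6 BV2 libraries, 3 per group by their labels. Reads per gene were deposited as counts, unnormalised. The deposited FPKM values are these counts scaled by gene length and depth, since the ratio of FPKM to count, scaled by depth, had a largest relative spread over libraries of 6.33e-16 within a gene. Bowtie2 2.2.3, HISAT2 2.1.0, HTSeq 0.6.0 and build GRCm39 are named in the submitters' processing notes, without roles, and no source used here says whether the counting was stranded. All deposited sample columns were used.

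Counts were fitted with edgeR 4.0.16 in R 4.3.3 (quasi-likelihood test, two-sided, TMM scaling, filterByExpr with a minimum count of 10, group as the only term). Benjamini-Hochberg adjustment ran over all 13199 tested genes and the threshold was an adjusted p under 0.05. CPM are TMM-scaled. Standard errors are the log2 fold change over the root of the F statistic. The procedure was also run on simulated counts with known changes. Far fewer genes changed there than were called here, so that run does not give the error rate of these calls. Totals of 15062131 to 18005592 reads set the precision, and a count of 0 was read as allowing 3 reads over a group. Alternatives were DESeq2 1.42.0, its size factors in edgeR, no filter, a test against a log2 fold change of 0.5, the replicate number as a block, limma 3.58.1 on log2(FPKM + 1) or log2(FPKM + 0.1), leaving out each library, and neighbours within 250 kb in place of 500 kb.

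The members and all gene lists were chosen with earlier results of these data known. Besides the members, named genes were a few central pathway genes and, per list and direction, up to 4 called genes with the smallest adjusted p. Serpinb8, Serpinb1b, Vtn, the granule proteases, Ctss, Ctsc, the collagens, Prtn3, the marker genes and Gm36099 were named after their values were seen. Same-numbered libraries of the groups did not deviate together, with correlations of -0.016, -0.0112 and 0.00189 across genes, so the numbers were not taken as pairs. Protein sequences were not used here. Results for a few genes are not reported here, though such genes stay in the counts over lists.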

Additional observations from a re-analysis of the deposited data

How the results depend on the processing

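Tested against a log2 fold change of 0.5 in place of 0, the calls fell to 1221 genes higher and 744 lower, the pathway to 12 higher and 2 lower, the other serpins to 2 lower, and the neighbours to 8 higher and 1 lower; Plau was no longer called. Without the low-count filter 4 other serpins were higher and Serpinb6a was called. Within 250 kb 11 neighbours were higher, of fewer genes. Leaving out 1 library gave 3512 to 4210 genes higher and 3188 to 4041 lower. Serpinf2, not called in either fit, had a log2 fold change of -0.28 to 0.12 over the fits that leave out 1 library, the latter without GFP replicate 1, against -0.13. The replicate block, on numbers that do not pair the libraries, gave 3848 genes higher and 3679 lower, and among the named genes it ended only the call of Ppib. On log2(FPKM + 1) the log2 fold change of Serpinb2 was 1.03, of Serpinb10 1.82 and of Serpinb1a -3.26, since the pseudocount shrinks low values. The causes of the other changes were not tested. Of 38 called genes outside the members, 16 kept their call under every one of the 14 alternatives that tested them; Mmp2 and Serpinb12, among these, were below the FPKM filter in both limma fits that use it. Depth limits Serping1, Serpinh1 and the GFP level of Serpinb2.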
